A study of Mus musculus with 6 samples.

Results

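Matrix metalloproteinases are the subject of these results: 10 genes (Mmp13, Mmp8, Mmp2, Mmp9, Mmp3, Mmp10, Mmp11, Mmp12, Mmp19 and Mmp27), taken by their symbols from the 23934 genes of the deposited table, which holds 19 Mmp genes in all. RNA was sequenced from sorted mouse skin cells at day 50, in 3 knockout libraries (S5, S6 and S7) and 3 control libraries (S2, S3 and S4). The knockout mice are labelled ZNF750 fl/fl, with both alleles of Zfp750 floxed, Rosa26 -/- and either Lrig1-CreER +/- or Lrig1-CreERT2 +/-. Of the control mice, 2 are labelled ZNF750 wt/fl and Rosa26 -/-, and 1 is ZNF750 wt/wt and Rosa26 +/-, all with the same recombinase alleles. Every mouse received 4-hydroxytamoxifen, between days 4 and 7 or days 5 and 8 of age, and the labels describe the sorted cells as expressing tdTomato. The recombinase is driven from Lrig1, a gene known from the upper hair follicle, so deletion was directed at cells that express Lrig1. Which cell types these were was not measured here. The labels do not say how cells with a Rosa26 -/- genotype came to carry tdTomato, nor which mouse gave which library.

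Matrix metalloproteinases are zinc-dependent endopeptidases that cut collagens, gelatin, proteoglycans and other matrix proteins outside the cell. Most are secreted as inactive proenzymes, are switched on when other proteases remove the propeptide, and are held back by tissue inhibitors of metalloproteinases (Timps). In skin they are known from wound repair, hair follicle remodelling and inflammation, where fibroblasts, keratinocytes and leukocytes each make a different set.

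Levels below are the authors' normalized counts, estimated reads divided by 1 factor per library. Estimated depth was 16940656 to 20222372 reads in the knockout libraries and 15310161 to 20705441 in the controls. Of the cell type marker lists, the 10 fibroblast markers had the highest sum in every library, 940833 to 1241822 in the knockouts and 2998237 to 8941450 in the controls. The keratinocyte markers summed to 3665 to 26606 in the knockouts and 601 to 33231 in the controls, the lowest being control S3. Zfp750 itself was at 4.90, 1.82 and 7.16 in S5, S6 and S7, and at 41.9, 3.75 and 314 in S2, S3 and S4, so it did not check the label of control S3. In bulk RNA, more cells of a type and more RNA per cell cannot be told apart.

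Of the 10 members, 6 lie in a row on chromosome 9 within 309 kb, all on the plus strand: Mmp13, Mmp12, Mmp3, Mmp10, Mmp8 and Mmp27. The sequences of 5 of them just before the RefSeq transcription start are shown because neighbours in this row changed in opposite directions. Each is 250 bases on the plus strand of GRCm38.p6, from RefSeq. The windows are chr9:7272264-7272513 for Mmp13, chr9:7445572-7445821 for Mmp3, chr9:7502092-7502341 for Mmp10, chr9:7558179-7558428 for Mmp8 and chr9:7571146-7571395 for Mmp27. Capitals mark exact matches on either strand to 4 motifs: AP-1 (TGAGTCA), PEA3 of the ETS family (AGGAAG), Runx (TGTGGT) and the TATA box (TATAAA).
Mmp13: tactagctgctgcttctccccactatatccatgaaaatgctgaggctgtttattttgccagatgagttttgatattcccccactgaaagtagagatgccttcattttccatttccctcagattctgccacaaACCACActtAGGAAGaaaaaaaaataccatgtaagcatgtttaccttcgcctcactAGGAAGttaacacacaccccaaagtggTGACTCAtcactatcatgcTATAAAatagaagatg
Mmp3: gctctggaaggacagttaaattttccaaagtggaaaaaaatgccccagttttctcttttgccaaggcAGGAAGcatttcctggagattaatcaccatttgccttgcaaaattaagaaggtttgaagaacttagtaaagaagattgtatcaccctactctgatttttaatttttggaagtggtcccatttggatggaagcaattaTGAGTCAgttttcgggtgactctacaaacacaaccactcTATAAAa
Mmp10: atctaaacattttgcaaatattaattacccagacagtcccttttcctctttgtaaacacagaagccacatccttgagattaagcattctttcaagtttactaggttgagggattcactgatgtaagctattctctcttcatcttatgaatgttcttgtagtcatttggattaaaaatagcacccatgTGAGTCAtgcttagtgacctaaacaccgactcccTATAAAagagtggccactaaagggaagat
Mmp8: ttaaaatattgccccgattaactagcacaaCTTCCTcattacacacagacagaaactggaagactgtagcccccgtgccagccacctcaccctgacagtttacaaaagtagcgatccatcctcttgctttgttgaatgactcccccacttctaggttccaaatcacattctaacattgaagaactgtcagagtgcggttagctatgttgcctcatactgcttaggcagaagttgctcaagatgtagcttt
Mmp27: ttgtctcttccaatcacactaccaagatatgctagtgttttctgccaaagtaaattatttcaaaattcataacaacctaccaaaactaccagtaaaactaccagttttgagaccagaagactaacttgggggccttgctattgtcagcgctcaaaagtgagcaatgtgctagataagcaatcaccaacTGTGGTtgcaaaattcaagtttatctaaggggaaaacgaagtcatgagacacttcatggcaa
No marked match overlaps another. The table of promoters gave windows for 7 members, also for Mmp11 and Mmp12, and none for Mmp2, Mmp9 and Mmp19.

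Across the 10 members, 7 were higher and 1 was lower in the knockout, and Mmp2 and Mmp3 did not pass the test (limma, adjusted p under 0.05 over all 15935 tested genes). Of all tested genes 4.12% were called higher and 2.59% lower, 6.71% in all. The groups did not overlap for the same 8 members, a pattern found in 15.7% of tested genes for higher and 13.1% for lower values. Mmp13, Mmp8, Mmp10 and Mmp12 passed the filter on low values through the knockout libraries alone, and Mmp9 through the knockouts and 1 control, so that they were tested at all depended on their being high there. Without that filter 7 members were again called higher, where 2.53% of 23934 genes were, and 1 lower, where 1.6% were. Groups that did not overlap made up 13.2% (higher) and 12.1% (lower) of those 23934 genes.

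**Figure D1:**
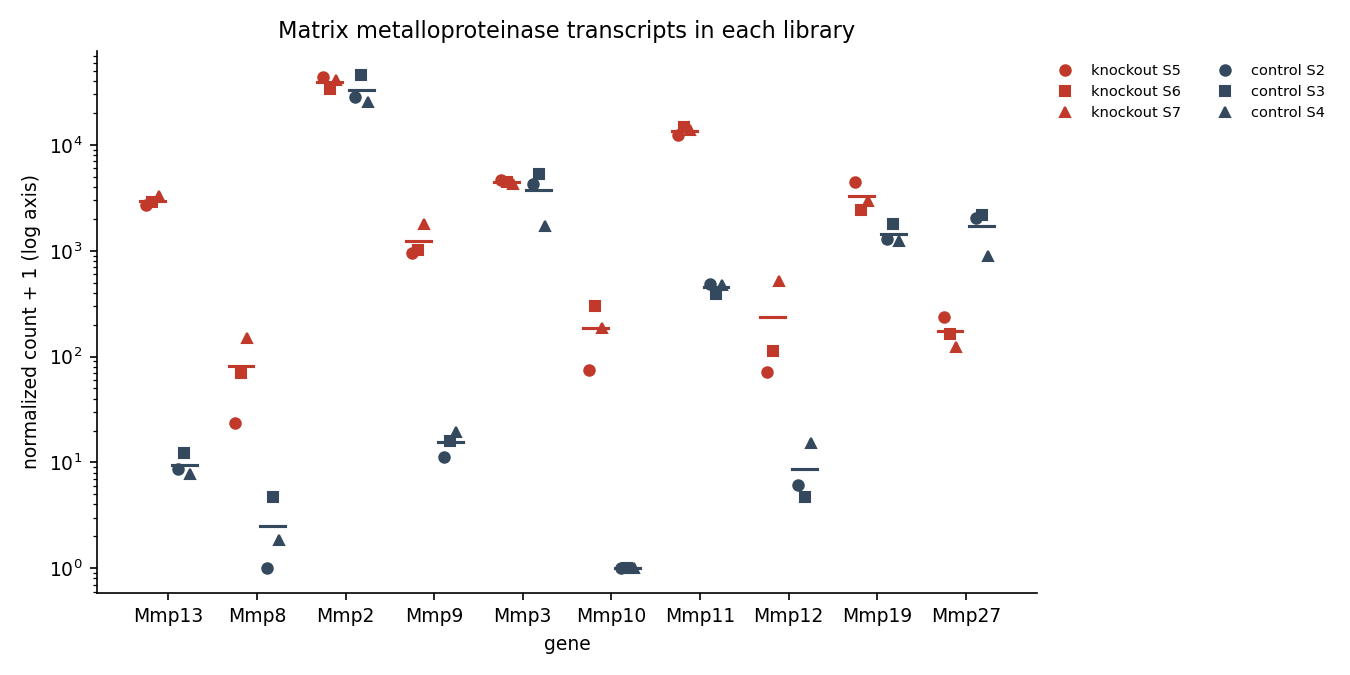
Normalized count plus 1, on a log axis, of each member in the 3 knockout libraries (red, left) and the 3 control libraries (blue-grey, right), with a bar at each group's mean. Mmp13 and Mmp11 sat tightly together within each group, while Mmp12 ran from 70.6 to 519.5 in the knockouts, and Mmp10 was at 0 in every control.

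The collagenases, which can cut the intact triple helix of fibrillar collagen, were near the detection limit in control cells. Mmp13 (collagenase 3; ENSMUSG00000050578, chromosome 9, start 7272514 and end 7283332 in the table's own coordinates) was at 2702, 2880 and 3306 in knockouts S5, S6 and S7, against 7.62, 11.2 and 6.73 in controls S2, S3 and S4. The lowest knockout was 240.3-fold above the highest control, and the control values stand for 6, 9 and 8 reads. The mean was 2963 ± 311 in the knockouts and 8.53 ± 2.39 in the controls (SD, n = 3 each), a ratio of 347. The log2 fold change was 7.40 ± 0.19 (SE, limma adjusted p = 9.26e-06), and with 1 library left out it was 7.32 to 7.50.

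Mmp8 (collagenase 2; ENSMUSG00000005800), best known as the collagenase that neutrophils store in granules, was at 22.6, 68.4 and 149.6 in S5, S6 and S7. The control values of 0, 3.75 and 0.841 (S2, S3 and S4) stand for 0, 3 and 1 reads. All 3 knockouts were above all 3 controls, but the knockouts themselves differed by 6.63-fold. Its log2 fold change was 2.79 ± 0.58 (adjusted p = 0.0325). Leaving out S6, S7, S2, S3 or S4 ended the call, at adjusted p-values of 0.123, 0.0814, 0.121, 0.0674 and 0.0529.

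The gelatinases, which degrade denatured collagen and basement membrane type IV collagen, were split. Mmp2 (gelatinase A; ENSMUSG00000031740, chromosome 8), made constitutively by fibroblasts, was at 44239, 33479 and 40675 in the knockouts and at 28374, 45430 and 25206 in the controls. These ranges overlapped, with the highest value in control S3. The difference on the log2 scale was 0.30 with a 95% interval of -0.47 to 1.06 (adjusted p = 0.637).

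Mmp9 (gelatinase B; ENSMUSG00000017737, chromosome 2), made by activated keratinocytes, macrophages and neutrophils, was at 952, 1007 and 1785 in the knockouts and at 10.2, 15.0 and 18.5 in the controls. The lowest knockout was 51.5-fold above the highest control. The means were 1248 ± 466 and 14.6 ± 4.19 (SD, n = 3 each), the log2 fold change 5.68 ± 0.29 (adjusted p = 0.000239).

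Among the stromelysins, enzymes with broad matrix substrates, the pattern differed by member. Mmp3 (stromelysin 1; ENSMUSG00000043613), which also activates other proenzymes, was at 4671, 4501 and 4290 in the knockouts and at 4286, 5285 and 1695 in the controls. All 3 knockouts lay inside the control range, which the low control S4 made wide. Its log2 fold change was 0.41, with a 95% interval of -0.51 to 1.32 (adjusted p = 0.579), and -0.086 without control S4.

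Mmp10 (stromelysin 2; ENSMUSG00000047562), an enzyme known at the migrating keratinocyte edge of wounds, was at 73.5, 302 and 186 in the knockouts. No read was counted in any control. Set against 3 reads in each control library as the floor, the knockout mean was at least 55.7-fold higher (adjusted p = 0.00443), with no call lost when 1 library was left out.

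Mmp11 (stromelysin 3; ENSMUSG00000000901, chromosome 10), a stromal enzyme that furin activates before secretion, was at 12418, 14674 and 13753 in the knockouts, against 483, 393 and 479 in the controls. Its libraries lay within 1.18-fold in the knockouts and 1.23-fold in the controls. The means were 13615 ± 1134 and 452 ± 50.4 (SD, n = 3 each), a ratio of 30.1. It had a log2 fold change of 4.89 ± 0.16 (adjusted p = 2.49e-05), or 4.79 to 4.95 with 1 library left out.

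Mmp12 (macrophage elastase; ENSMUSG00000049723), which degrades elastin, was at 70.6, 112 and 519.5 in the knockouts and at 5.08, 3.75 and 14.3 in the controls. The groups did not overlap, and S7 and S4 were the highest of their groups. The change was 3.41 ± 0.68 on the log2 scale (adjusted p = 0.0289), a call lost without S6, S2 or S3 at adjusted p-values of 0.0845, 0.113 and 0.0807.

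The last 2 members changed in opposite directions. Mmp19 (ENSMUSG00000025355, chromosome 10), a widely expressed enzyme of basement membrane substrates, was at 4459, 2413 and 2967 in the knockouts and at 1286, 1798 and 1241 in the controls. The groups were separate by a narrow margin, the lowest knockout being 1.34-fold above the highest control. The change was 1.15 ± 0.26 on the log2 scale (adjusted p = 0.0437), and leaving out any 1 of the 6 libraries ended the call: adjusted p = 0.0747, 0.0654 and 0.104 without S5, S6 and S7, and 0.160, 0.0509 and 0.0742 without S2, S3 and S4.

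Mmp27 (ENSMUSG00000070323) was the member that fell. It was at 237, 162 and 122 in the knockouts and at 2029, 2163 and 898 in the controls, so that the lowest control was 3.79-fold above the highest knockout. The knockout mean of 174 ± 58.6 was 0.102 of the control mean of 1697 ± 695 (SD, n = 3 each). The log2 fold change was -3.17 ± 0.38 (adjusted p = 0.00529) and stayed between -3.57 and -2.94 with 1 library left out.

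**Figure D2:**
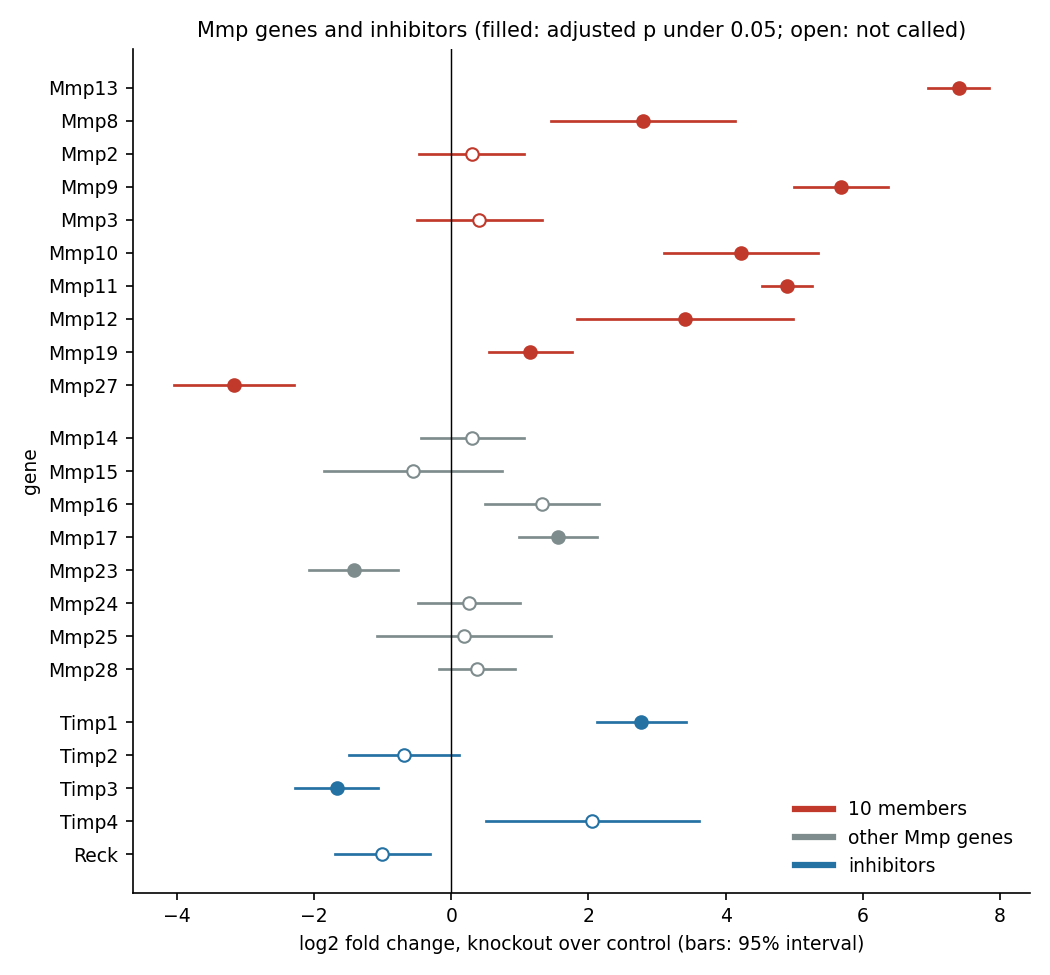
Log2 fold change of knockout over control with its 95% interval for the 10 members (red), the 8 other tested Mmp genes (grey) and 5 inhibitors (blue). Filled points passed at an adjusted p under 0.05. Mmp13 lies far to the right at 7.40, Mmp27 to the left at -3.17, and the intervals of Mmp2 and Mmp3 span 0.

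Per kb of all annotated exons, a rough scale for comparing genes, the order of the members changed between the groups. The place of Mmp12 depends on its long exon total of 7237 bases, against 3539 for the next longest, Mmp9. Before this scaling its knockout mean of 234 was above that of Mmp10 at 187. In the knockouts Mmp2 averaged 11707 per kb, followed by Mmp11 at 4901, Mmp3 at 2491, Mmp13 at 1108 and Mmp19 at 928. Mmp9 came next at 353 per kb, then Mmp10 at 109, Mmp27 at 78.6, Mmp8 at 33.1 and Mmp12 at 32.3. Among these, the ranges of Mmp13 and Mmp19 overlapped, as did those of each neighbouring pair from Mmp10 down to Mmp12. In the controls Mmp2 led at 9790 per kb, followed by Mmp3 at 2085, Mmp27 at 768, Mmp19 at 408 and Mmp11 at 163. The other 5 averaged 0 to 4.11 per kb. Control ranges overlapped between Mmp3 and Mmp27, between Mmp27 and Mmp19, between Mmp9 and Mmp13, between Mmp12 and Mmp8, and between Mmp8 and Mmp10. By this mean, Mmp11 was at rank 2 in the knockouts and rank 5 in the controls, and Mmp27 was at rank 8 in the knockouts and rank 3 in the controls.

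The chromosome 9 row brings these changes side by side. From Mmp13 onwards, Mmp12 was higher, Mmp3 was not called, Mmp10 and Mmp8 were higher, and Mmp27 was lower. The end of Mmp8 and the start of Mmp27 are 2909 bases apart in the table's own coordinates, and both genes are on the plus strand. Mmp8 had a log2 fold change of 2.79 and Mmp27 one of -3.17. A list of genes that flank the row, not all of those nearby, held 8 tested genes. Of these 8, limma called 0, while 1 was higher and 2 were lower at an unadjusted p under 0.05, where 12.4% and 10.8% of all tested genes were. These were Tmem123 (log2 fold change 0.43, adjusted p = 0.137), Pdgfd (-0.83, adjusted p = 0.0571) and Ddi1 (-0.91, adjusted p = 0.145). Tmem123 passed with every library rescaled to a common total (adjusted p = 0.0465), and Pdgfd under a filter of 5 in 1000000 (0.0483) and without control S4 (0.0208). The other flanking genes of the list, Dync2h1, Dcun1d5, Birc2, Birc3 and Yap1, lay between -0.26 and 0.057. Outside the list, Trpc6 at 1272 kb from the Mmp13 start was called higher (log2 fold change 2.20, limma adjusted p = 0.00996). Cfap300 at 749 kb and Cep126 at 804 kb were not called. Mmp7, Mmp20, Mmp1a and Mmp1b of the same region were not found by these symbols in the deposited table. The sources used here do not say whether reads were counted by strand, but Mmp8 and Mmp27 do not overlap.

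**Figure D3:**
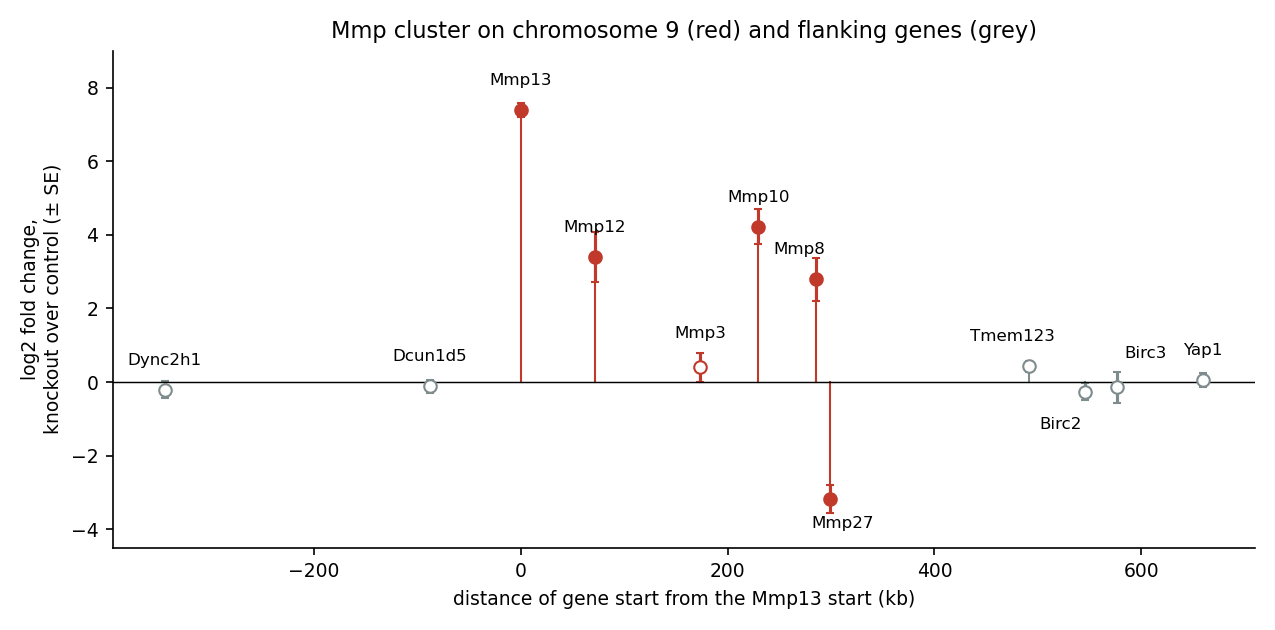
Log2 fold change (± SE) of knockout over control against the distance of each gene's start from the Mmp13 start in kb, for the 6 Mmp genes of the row (red) and 6 of the flanking genes (grey). Filled points passed at an adjusted p under 0.05. Red points reach 7.40 and -3.17, while the grey points stay between -0.26 and 0.43.

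The sequences before these genes shared one feature in part. An AP-1 match (TGAGTCA or its reverse complement TGACTCA) lay 35 to 29 bases before the start of Mmp13, 46 to 40 before Mmp3 and 63 to 57 before Mmp10, and Mmp12 had 1 in its second window, at 44 to 38 bases. Of 32851 mouse windows of 250 bases, 4.46% hold this motif. The motif was thus present before Mmp3, which was not called, and no match was found in the windows of Mmp8, Mmp11 and Mmp27. A TATA match (12.4% of windows) lay 16 to 11 bases before the start of Mmp13, 7 to 2 before Mmp3 and 29 to 24 before Mmp10. Runx matches (14.05%) lay before Mmp13 and Mmp27, and PEA3 matches (29.5%) before Mmp13, Mmp8, Mmp3 and Mmp12. These are letters in a window, and binding was not measured.

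Among the knockout libraries the members fell into those that were even and those that were not. The highest knockout library exceeded the lowest by 1.18-fold for Mmp11, 1.22-fold for Mmp13, 1.88-fold for Mmp9, 4.10-fold for Mmp10, 6.63-fold for Mmp8 and 7.36-fold for Mmp12. For Mmp19 it did so by 1.85-fold, with S5 highest. S7 was highest for Mmp8, Mmp9, Mmp12 and Mmp13, whereas S6 was highest for Mmp10 and Mmp11. The pan-leukocyte gene Ptprc was at 133, 679 and 1158 in S5, S6 and S7, against 36.9, 36.2 and 579 in the controls. Several marker sums were also highest in S7. The value in S7 over that in S5 was 30.1 for fat cell, 12.2 for neutrophil, 10.1 for endothelial, 7.19 for macrophage, 6.45 for keratinocyte and 4.3 for sebocyte markers, against 1.27 for mast cell and 0.833 for fibroblast markers. The mast cell sum was highest in S6. More even sums were those of chondrocyte and osteoblast, osteoclast and fibroblast markers. Their highest knockout library exceeded the lowest by 1.17-fold, 1.21-fold and 1.32-fold. The part of any of these cells in the members' values was not tested.

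Neutrophil markers were set beside Mmp8 and Mmp9, which these cells make. The 11 markers in the table summed to 99.0, 161 and 1210 in S5, S6 and S7, and to 15.2, 7.49 and 22.7 in S2, S3 and S4. Of the 2 that were tested, limma called 0, with both higher at an unadjusted p under 0.05, where 12.4% of all tested genes were higher. The marker S100a8 was at 11.8, 25.5 and 225 in the knockouts and at 1.27, 0 and 1.68 in the controls, and S100a9 and Retnlg were at 0 in every control. Low values of Mpo, Elane and Camp overlapped between the groups. The neutrophil sum was 12.2-fold higher in S7 than in S5, Mmp8 was 6.63-fold higher and Mmp9 1.88-fold. Their part in the rise of either gene was not tested.

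Macrophage markers, set beside Mmp12, summed to 2082, 1728 and 14967 in S5, S6 and S7, and to 1286, 1585 and 2259 in S2, S3 and S4. Of 9 tested, 1 was called, the lipopolysaccharide co-receptor gene Cd14, at a log2 fold change of 2.02 (adjusted p = 0.0450). At an unadjusted p under 0.05, 6 were higher and 0 lower, where 12.4% and 10.8% of all tested genes were. Csf1r was not called (log2 fold change -0.78, adjusted p = 0.604). It was at 266, 173 and 1760 in S5, S6 and S7 and at 864, 1096 and 455 in S2, S3 and S4. Both the macrophage sum and Mmp12 were highest in S7 among the knockouts and in S4 among the controls. So were Ptprc and the keratinocyte, neutrophil, and dendritic and Langerhans cell sums. From S5 to S6 Mmp12 went up, from 70.6 to 112, while the macrophage sum went down. The part of these cells in the rise of Mmp12 was not tested. Osteoclast markers, since osteoclasts make Mmp9, summed to 15259 to 18433 in the knockouts and 10265 to 22888 in the controls, mostly from Ctsk. Of 5 tested, 1 was called: Atp6v0d2, a proton pump subunit gene of osteoclasts, was at 24.5, 43.8 and 94.7 in the knockouts and 0, 2.50 and 0 in the controls (log2 fold change 2.52, adjusted p = 0.0219). The 5 had a median log2 fold change of 0.097, and limma called 4.12% of all tested genes higher. Calcr (-1.27, adjusted p = 0.217) and Itgb3 (-0.37, adjusted p = 0.371) had negative values without a call. The part of such cells in the Mmp9 values was not tested.

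Mmp13 is also made by cartilage and bone cells, so their markers were set beside it. The 9 such markers in the table summed to 1553 to 1822 in the knockouts and to 1150 to 2541 in the controls, and 0 of 5 tested genes were called by limma, with 1 higher (Runx2) and 2 lower (Sp7 and Alpl) at an unadjusted p under 0.05, where 12.4% of all tested genes were higher and 10.8% lower. The cartilage collagen gene Col2a1 was at 1.96, 6.38 and 2.39 in the knockouts and 2.54, 6.25 and 1.68 in the controls, and the hypertrophic cartilage gene Col10a1 at 13.7, 12.8 and 15.9 in the knockouts and 21.6, 3.75 and 28.6 in the controls. Sp7, a transcription factor of bone-forming cells, was at 38.2, 9.11 and 4.77 in the knockouts and 71.2, 89.9 and 40.4 in the controls. The groups did not overlap for Sp7, lower in the knockouts (adjusted p = 0.103, and 0.0348 without S5), nor for Runx2 and the osteocyte gene Dmp1, both higher there. Such separation was found in 15.7% of tested genes for higher and 13.1% for lower values. Runx2 was at 747, 932 and 674 in the knockouts and 456, 403 and 559 in the controls, and Dmp1 at 1.96, 3.65 and 14.3 in the knockouts and 1.27, 0 and 0 in the controls. Dmp1 was too low to be tested. The part of such cells in the Mmp13 values was not tested. Of the 10 fibroblast markers, 2 were called higher and 0 lower, beside 4.12% and 2.59% of all tested genes. The 2 were the growth factor receptor genes Pdgfra (log2 fold change 1.24, adjusted p = 0.0165) and Pdgfrb (1.00, adjusted p = 0.0384). The list's sum was lower in every knockout than in any control, and most of it came from the collagen genes Col1a1, Col1a2 and Col3a1, which were not called.

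**Figure D4:**
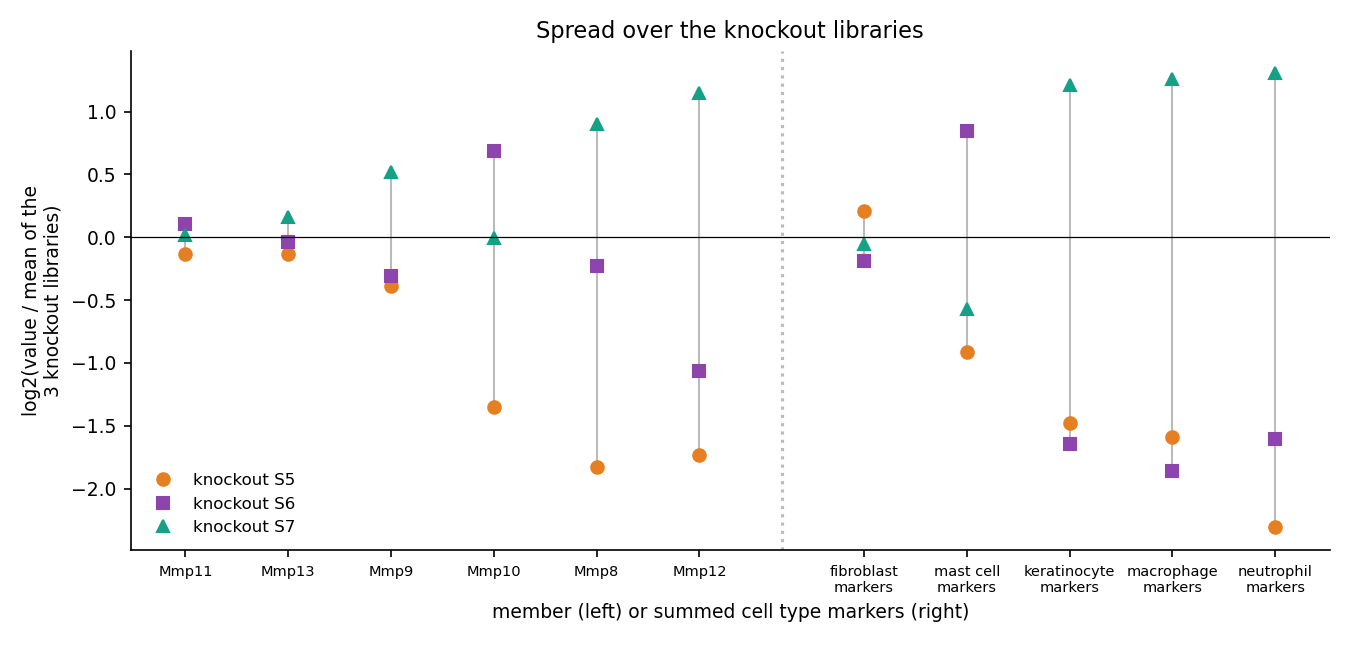
Log2 of each knockout library's value over the mean of the 3 knockout libraries, with 1 point per library. On the left are 6 members that rose, without Mmp19, and on the right some of the summed cell type markers. Mmp11, Mmp13 and the fibroblast sum stay close to 0. Mmp8 and Mmp12 are high in S7, as are the keratinocyte, macrophage and neutrophil sums. The osteoclast sum and the chondrocyte and osteoblast sum, not plotted, were also even, though some single genes in both lists were not.

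Of the 8 other tested Mmp genes, 1 was higher and 1 lower, where 4.12% and 2.59% of all tested genes were. The median log2 fold change of the 8 was 0.28, beside 0.014 over all tested genes. The membrane-bound Mmp14, which activates proMMP-2 at the cell surface, was abundant at 30959.5, 29251 and 28940 in the knockouts and 22992, 35439 and 16946 in the controls, and was not called (log2 fold change 0.31 ± 0.32, adjusted p = 0.615). Mmp17, another membrane-anchored enzyme, rose to 251 ± 52.2 in the knockouts, against 78.8 ± 13.4 in the controls (log2 fold change 1.55 ± 0.24, adjusted p = 0.0121), a call lost without S6 or S2 (0.0653 and 0.0544). Mmp23 fell to 623 ± 50.1, against 1775 ± 675 (log2 fold change -1.43 ± 0.28, adjusted p = 0.0267), a call lost without S5, S6, S7 or S2 (0.0505, 0.107, 0.0819 and 0.109).

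The inhibitors did not move together: of 5 tested, 1 rose and 1 fell, beside 4.12% and 2.59% of all tested genes. The median log2 fold change of the 5 was -0.69. Timp1, the inducible inhibitor that fibroblasts release with collagenases, was at 679, 407 and 578 in the knockouts and 75.0, 94.9 and 51.3 in the controls (log2 fold change 2.77 ± 0.28, adjusted p = 0.00274). Timp3, the inhibitor that binds to the matrix, was at 4933, 3194 and 4661 in the knockouts and 12029.9, 11243 and 17655 in the controls (-1.67 ± 0.26, adjusted p = 0.0120), and its call was lost without S6 or S2 (0.0550 and 0.0527). The groups did not overlap for either gene. Timp2, the most abundant inhibitor per kb, averaged 9954 per kb in the knockouts and 16557 in the controls and was not called (adjusted p = 0.280), nor was the membrane inhibitor gene Reck (adjusted p = 0.0934, and 0.0430 without S4). All 5 had separate groups, 2 higher and 3 lower, against 15.7% and 13.1% of all tested genes. Per kb, Timp1 averaged 625 in the knockouts and 83.0 in the controls, and Mmp13 averaged 1108 and 3.19.

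Several genes for activators and inhibitors that act upstream of the metalloproteinases were higher, and some were lower without a call. Of all tested genes 4.12% were called higher and 2.59% lower. Of 6 tested genes of the plasminogen system, whose product plasmin removes propeptides, 2 rose and 0 fell. Serpine2, which encodes the inhibitor protease nexin 1, rose to 4015 ± 1503 in the knockouts, against 351 ± 151 in the controls (log2 fold change 3.51 ± 0.39, adjusted p = 0.00395). Plat, for tissue plasminogen activator, rose 1.11 ± 0.26 (adjusted p = 0.0467), a call lost without S5, S6, S7, S2 or S3 (0.106, 0.144, 0.0749, 0.140 and 0.0915). Plau was below every control in every knockout without a call (-0.81 ± 0.23, adjusted p = 0.0840). At an unadjusted p under 0.05, 2 genes of this list were higher and 1, Plau, lower. Of 8 tested genes for proteases that activate proenzymes 4 rose and 0 fell, with a median log2 fold change of 2.11. These 8 include the mast cell protease genes Tpsab1, Tpsb2, Cma1 and Mcpt4. At an unadjusted p under 0.05, 7 were higher and 1, Pcsk6, lower, where 12.4% and 10.8% of all tested genes were. Furin was at 5982, 7046 and 7698 in the knockouts and 2754, 3716 and 3091 in the controls (1.12 ± 0.19, adjusted p = 0.0160; lost without S6, S7 or S2 at 0.0726, 0.0601 and 0.0831). The related convertase gene Pcsk5 rose 1.48 ± 0.25 (adjusted p = 0.0175, lost without S7 or S2 at 0.0629 and 0.0838). Pcsk6 was below every control in every knockout without a call (-1.50 ± 0.39, adjusted p = 0.0641). The mast cell tryptase gene Tpsab1 was at 151, 998 and 291 in the knockouts and at 0 in every control (adjusted p = 0.00455). Its near copy Tpsb2 was at 276, 1385 and 450 in the knockouts and 2.54, 8.74 and 65.6 in the controls (adjusted p = 0.0193; lost without S6, S7, S2 or S3 at 0.0726, 0.0554, 0.0774 and 0.0593), and reads shared between the pair make their separate values uncertain. Mast cell markers summed to 1633 to 5504 in the knockouts and 76.2 to 701 in the controls, and their part in the tryptase values was not tested.

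Of 14 tested genes for cytokines known to induce metalloproteinases and for their receptors, 6 rose and 0 fell, beside 4.12% and 2.59% of all tested genes. The median log2 fold change of the 14 was 0.87. The cytokine genes Il6 (0.15, adjusted p = 0.922), Tnf (1.43, adjusted p = 0.247) and Il1b (2.34, adjusted p = 0.107) were not called. Nor was the receptor gene Il6st (-0.13, adjusted p = 0.767), and Il1a and Il17a were too low to be tested. The ligand oncostatin M gene Osm was at 132, 294 and 521 in the knockouts and 12.7, 12.5 and 7.57 in the controls (log2 fold change 3.83 ± 0.47, adjusted p = 0.00546). Its receptor gene Osmr was at 4195, 4763 and 3614 in the knockouts and 1746, 1483 and 1150 in the controls (1.53 ± 0.20, adjusted p = 0.0070). Osm was highest in S7, as Ptprc was, while Osmr was lowest there. Tgfb1 rose 1.47 ± 0.19 (adjusted p = 0.00623). The interleukin receptor genes Il1r1 (0.84 ± 0.18, adjusted p = 0.0349) and Il17ra (0.89 ± 0.19, adjusted p = 0.0379) rose less and lost their calls in 5 of the 6 fits with a library left out. For Il1r1 these were without S5, S6, S7, S2 or S4 (0.0860, 0.0993, 0.0882, 0.145 and 0.0597), and for Il17ra without S5, S6, S2, S3 or S4 (0.0928, 0.138, 0.114, 0.102 and 0.0518).

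Of 18 AP-1, ETS, Runx and NF-kB genes, 2 rose and 0 fell, beside 4.12% and 2.59% of all tested genes. The median log2 fold change of the 18 was 0.43, and no gene of the AP-1 families Fos and Jun was called. Runx1 was at 6287, 8161 and 5646 in the knockouts and 1498, 694 and 1233 in the controls (2.60 ± 0.30, adjusted p = 0.00449). Runx2, a regulator of Mmp13 in bone, was not called (0.72 ± 0.19, adjusted p = 0.0717; 0.0486 without S4). Ets1 rose 1.40 ± 0.25 (adjusted p = 0.0186), a call lost without S6, S7 or S3 (0.0795, 0.0575 and 0.0522).

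Of 10 genes for collagen receptors and uptake of collagen fragments, 2 rose and 1 fell, beside 4.12% and 2.59% of all tested genes. The median log2 fold change of the 10 was 0.27. The collagen-binding integrin genes went different ways. Itga11 (1.55 ± 0.29, adjusted p = 0.0246) and Itga1 (1.09 ± 0.17, adjusted p = 0.0133) rose, whereas Itga2 was at 143, 82.9 and 132 in the knockouts and 432, 417 and 391.9 in the controls (-1.75 ± 0.23, adjusted p = 0.00711). The Itga11 call was lost without S5, S6, S7 or S2 (0.0509, 0.102, 0.0629 and 0.0724) and that of Itga1 without S6, S7 or S2 (0.0670, 0.0502 and 0.0637). Of 14 substrate genes 3 rose and 0 fell, beside the same shares of all tested genes, with a median log2 fold change of -0.16. The genes of the fibrillar collagens that collagenases cut were below every control in every knockout without a call. Col1a1 was at 407741, 333927 and 400230 in the knockouts and 2150000, 4570000 and 1430000 in the controls (-2.67 ± 1.21, adjusted p = 0.237). Col1a2 averaged 201486 in the knockouts and 1469097 in the controls (-2.71 ± 0.92, adjusted p = 0.131), and Col3a1 312647 in the knockouts and 1050611 in the controls (adjusted p = 0.325). Col1a1 and Col1a2 were called lower at the common total (0.0303 and 0.0149), without the intensity trend (0.0177 and 0.0159) and with robust empirical Bayes (0.0242 and 0.0189), and Col1a2 also under the stricter filter (0.0320). Among the substrates that rose, Tnc, for tenascin C, was at 57693, 60215 and 49449 in the knockouts and 1038, 496 and 3507 in the controls (5.50 ± 0.62, adjusted p = 0.00414). The anchoring fibril gene Col7a1 rose 3.76 ± 0.25 (adjusted p = 0.000578) and the osteopontin gene Spp1 5.98 ± 0.31 (adjusted p = 0.000239).

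By Euclidean distance between log2 profiles centred over the 6 libraries, the 5 tested genes most like Mmp13 were Saa3 at 0.85, Cbln1 at 1.44, Tnn at 1.83, Prg4 at 1.89 and Spp1 at 1.90. All 5 were high in every knockout and low in every control, which follows from their choice by closeness to Mmp13. Saa3, an acute-phase serum amyloid, was at 2058, 2015 and 3727 in the knockouts and 5.08, 1.25 and 1.68 in the controls. No other Mmp gene was among the 5. The distance is a description over 6 libraries and was not tested.

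The calls of the 8 changed members were not equally firm, as the plot of settings shows. Mmp13, Mmp9, Mmp10, Mmp11 and Mmp27 were called under every alternative that tested them, and Mmp8, Mmp12 and Mmp19 were not. Mmp13 lay between 6.05 and 8.12 on the log2 scale over all settings, and Mmp11 between 4.79 and 5.21.

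**Figure D5:**
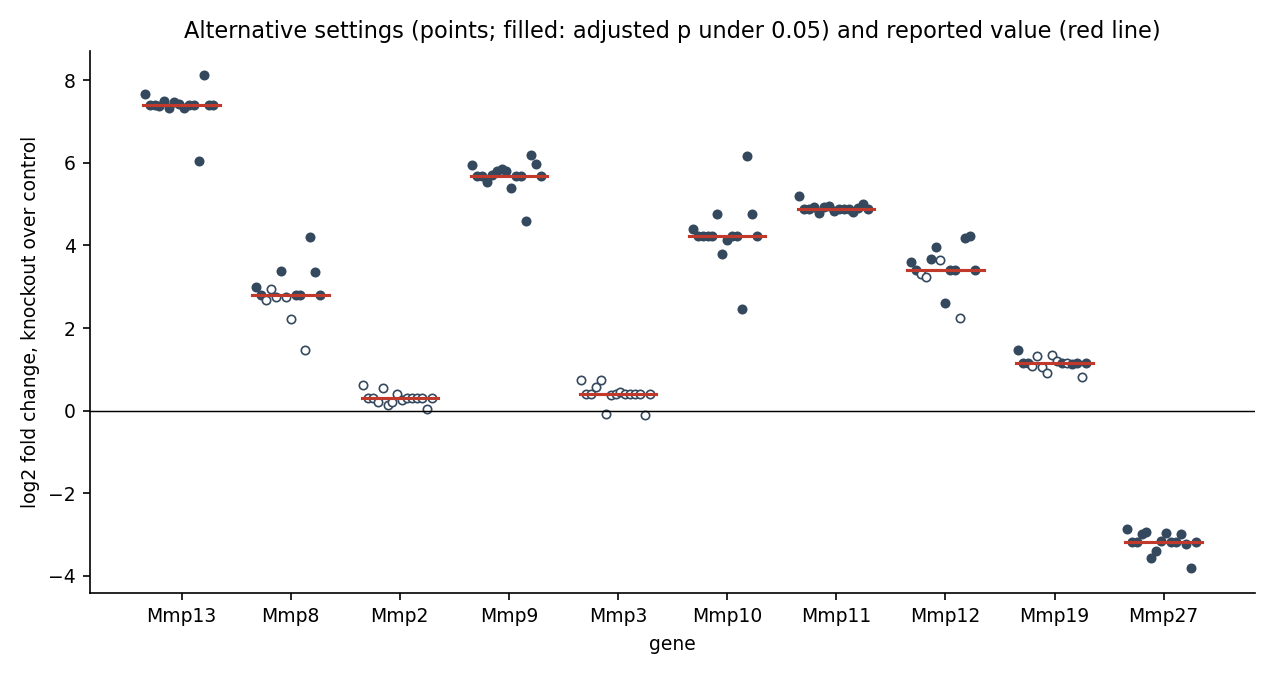
Log2 fold change of knockout over control of each member under the alternative settings (points, filled where the adjusted p is under 0.05), with the reported value as a red line. Points of Mmp13, Mmp9, Mmp10, Mmp11 and Mmp27 are all filled, those of Mmp8, Mmp12 and Mmp19 are mixed, and those of Mmp2 and Mmp3 are all open.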

How the data were processed

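The authors deposited 1 table of normalized counts, used here as a signal: most values in a library are whole multiples of 1 step (78.7% to 81.2% within 0.05, up to 1000 reads), and dividing by that step gave estimated reads. The rest are fractions, so no count model was run. Tools listed by the submitters' processing notes are TopHat2 2.1.0 and Partek 9.0.20.0202, with no roles. Build and counting are not given in those sources. Column names give the group but no numbered sample. Whether the 6 libraries came from 6 mice is not stated, so the p-values reflect the spread among libraries, which may be technical.

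Groups were compared with limma 3.58.1 in R 4.3.3 (2-sided, empirical Bayes with trend) on log2(value + 9.15), which understates the change of low genes. Genes needed 1 in 1000000 of a library's total in at least 3 libraries, and p-values were Benjamini-Hochberg adjusted over 15935 genes. The fit was tested on simulated data, with the same spread setting for every gene and no differences in cell content between libraries. Such differences in the real libraries were therefore not covered. Alternatives were other filters, pseudocounts and scaling, other variance settings, and each library left out. Levels per kb used exon lengths from GENCODE M21, which held 23221 of the 23934 gene IDs. The text names all 10 members, up to 5 called genes of each list by adjusted p and the 5 genes nearest to Mmp13; all other genes named were chosen after their values were seen. Members and lists were chosen with earlier results of these data known. Floors of 3 reads and intervals cover counting error only.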

Additional observations from a re-analysis of the deposited data

How the results depend on the processing

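Under 15 alternatives, 9 of 10 members kept their direction, and Mmp13, Mmp9, Mmp10, Mmp11 and Mmp27 were called in every fit that tested them. Mmp3 reversed to -0.086 and Mmp25 to -0.34 on the log2 scale without control S4, neither called, and with 1 library left out they reached at most 0.73 and 0.83. The count of members called higher, 7, was 4 under a filter of 5 in 1000000, which left Mmp8, Mmp10 and Mmp12 untested, and 4 to 6 with 1 library left out. The count lower stayed at 1. Mmp8 and Mmp12 were not called with a pseudocount 4 times larger (adjusted p = 0.0676 and 0.0602), nor Mmp19 without the intensity trend (0.0701). The count over all genes, 1070, was 337 to 1285 with 1 library left out: 342 and 503 without S6 and S7, and 337 and 596 without S2 and S3. The cause was not tested. Rescaling to a common total moved the median log2 fold change by 0.31 and the higher share of calls to 78.9%, against 61.4%. The 8 called members kept their calls there, and Mmp16 gained one (adjusted p = 0.0110). The filter on the mean over 6 libraries, chosen after seeing the data, gave 987 calls, and 7 members higher and 1 lower. Low control values, 0 to 22 reads for Mmp13, Mmp8, Mmp9, Mmp10 and Mmp12, limit how exactly their ratios are known. Pairing by the numbers of the sample titles could not be tried because the value columns do not carry them. The column names hold numbers of their own, of which 2 and 3 occur in both groups, and what they mark is not stated. Deviations from the group means correlated at 0.25 for the libraries numbered 2 and -0.22 for those numbered 3, so the numbers were not taken as pairs. With these numbers as a replicate block, chosen after seeing the data and leaving 1 residual degree of freedom, 1527 genes were called, 6 members were higher and 1 lower, Mmp19 missed the threshold (0.0552), and Mmp3, Mmp15 and Mmp25 reversed to -0.11, 0.038 and -0.31, none called.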

Other observations

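Trpc6, a cation channel gene 1272 kb from the Mmp13 start and outside the lists, was chosen after its values were seen. It was at 72.6, 52.0 and 59.7 in S5, S6 and S7 and at 10.2, 2.50 and 6.73 in S2, S3 and S4 (log2 fold change 2.20 ± 0.32, limma adjusted p = 0.00996). Mmp21 was too low to be tested, at 0, 15.5 and 1.59 in the knockouts and 2.54, 3.75 and 4.21 in the controls. Timp4, an inhibitor gene known from fat and muscle, was at 17.7, 43.8 and 177 in the knockouts and 3.81, 6.25 and 9.25 in the controls (log2 fold change 2.06 ± 0.67, limma adjusted p = 0.118, and 0.0477 without S5). Fat cell markers summed to 294, 1361 and 8854 in S5, S6 and S7 and to 77.5, 137 and 48.8 in S2, S3 and S4, and their part in the Timp4 values was not tested.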
